A study of Mus musculus with 19 samples.

Results

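The albumin family, the fetuins and the inter-alpha inhibitors are secreted plasma glycoproteins and their kin, and 10 of their genes were followed here out of 23337 gene symbols in the RefSeq transcript tables: Alb, Afp, Afm, Gc, Ahsg, Fetub, Ambp, Itih1, Itih2 and Itih3. The genes were chosen by symbol, and all 10 were present, in 12 transcripts of 30455. Where a gene had several transcripts, the one with most reads on average stood for it, and all 10 genes passed the low-count filter.

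RNA had been sequenced in 11 mouse libraries: 1 of yolk sac endoderm (ysE, the outer layer of the visceral yolk sac, VYS) at E12.5, 2 of the same layer at E9.25, 2 of its mesodermal partner layer at E9.25, 2 of fetal liver at E12.5, and 4 of cystic embryoid bodies (EBs, hollow ES cell aggregates with an outer endoderm-like epithelium). The tissues came from FVB embryos, with litters pooled, and the layers were separated by hand after enzyme treatment, so that the mesoderm kept its vessels and basement membrane. The cystic EBs came from 2 C57Bl/6x129 ES cell clones, A9 (XY) and JN (XX), each sampled at day 10 and day 15. No treatment or engineered allele was part of any group. Whole-genome bisulfite sequencing (WGBS) covered E12.5 ysE, E12.5 liver and day 15 cystic EBs. Each came from both directions of a CAST and FVB cross (CxF and FxC, 1 library each). The cystic EBs of WGBS thus came from other ES cell clones than A9 and JN, derived from that cross. The 1 H3K4me3 chromatin immunoprecipitation covered whole VYS of FVB embryos at E12.5. Library protocol followed tissue in part: E12.5 ysE was not strand-specific, E9.25 tissues and clone JN were made with dUTP, and liver and clone A9 with ScriptSeq, so that protocol and tissue cannot be told apart where E12.5 ysE is compared with any group or E9.25 ysE with liver. The 2 layers of the E9.25 yolk sac shared a protocol. Between clones A9 and JN both sex and protocol differed, and these cannot be told apart from the clone.

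The albumin family genes arose by tandem duplication. Alb encodes albumin, the main plasma carrier protein after birth, Afp encodes alpha-fetoprotein, its fetal counterpart, Afm encodes afamin, which binds vitamin E, and Gc encodes the vitamin D-binding protein. Ahsg and Fetub encode fetuin-A, an inhibitor of mineral deposition, and fetuin-B, an inhibitor of egg coat hardening. Ambp encodes a precursor that is cut into alpha-1-microglobulin and bikunin. Bikunin is joined to heavy chains, encoded by Itih1, Itih2 and Itih3, in proteins of the inter-alpha inhibitor family. These heavy chains are passed to hyaluronan. Yolk sac endoderm and hepatocytes both secrete plasma proteins, the yolk sac doing so before the liver is functional.

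In mm10 coordinates Alb (chr5:90460870-90476602), Afp (chr5:90490714-90508907) and Afm (chr5:90518949-90553544) lie in a row on the plus strand, 14.1 kb and 10.0 kb apart, and Gc (chr5:89417511-89457898) lies 1003 kb before Alb on the minus strand. Ahsg (chr16:22892015-22899451) and Fetub (chr16:22918382-22939768) are 18.9 kb apart on the plus strand. Itih1 (chr14:30929180-30943289) and Itih3 (chr14:30908572-30923787) are 5.4 kb apart on the minus strand. Ambp (chr4:63143275-63154172) and Itih2 (chr2:10094591-10130683) stand alone on the minus strand.

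The start regions of the 4 chromosome 5 genes are shown because they share a short motif and because levels and methylation differed among these neighbours. Each runs 5′ to 3′ from 250 bases before to 50 bases after the RefSeq start in GRCm38.p6, at chr5:90460620-90460919 for Alb, chr5:90490464-90490763 for Afp, chr5:90518699-90518998 for Afm and, on the minus strand, chr5:89457849-89458148 for Gc. Capitals mark GTTAAT, the core of the motif bound by Hnf1 proteins, and TATAAA, on either strand, and no pair of them overlapped.
Alb: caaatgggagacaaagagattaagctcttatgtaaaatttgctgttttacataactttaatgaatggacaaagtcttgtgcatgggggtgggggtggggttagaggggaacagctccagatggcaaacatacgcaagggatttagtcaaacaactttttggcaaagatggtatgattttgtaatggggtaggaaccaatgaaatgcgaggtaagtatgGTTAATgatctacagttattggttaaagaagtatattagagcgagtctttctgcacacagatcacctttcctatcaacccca
Afp: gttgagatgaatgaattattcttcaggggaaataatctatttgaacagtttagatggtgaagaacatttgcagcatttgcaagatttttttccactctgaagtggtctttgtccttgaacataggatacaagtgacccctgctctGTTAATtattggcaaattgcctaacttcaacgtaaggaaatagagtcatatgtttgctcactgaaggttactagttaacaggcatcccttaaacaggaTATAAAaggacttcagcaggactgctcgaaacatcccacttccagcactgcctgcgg
Afm: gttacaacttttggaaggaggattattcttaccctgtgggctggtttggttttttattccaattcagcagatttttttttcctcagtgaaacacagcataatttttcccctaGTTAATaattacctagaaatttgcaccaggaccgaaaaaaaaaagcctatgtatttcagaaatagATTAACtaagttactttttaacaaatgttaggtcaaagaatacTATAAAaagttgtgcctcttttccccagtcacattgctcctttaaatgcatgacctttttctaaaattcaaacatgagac
Gc: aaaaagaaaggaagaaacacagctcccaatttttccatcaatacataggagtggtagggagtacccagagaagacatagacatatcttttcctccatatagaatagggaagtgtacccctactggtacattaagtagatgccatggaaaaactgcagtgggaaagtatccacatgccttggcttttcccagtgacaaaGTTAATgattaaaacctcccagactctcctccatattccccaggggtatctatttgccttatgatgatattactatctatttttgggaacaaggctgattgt
GTTAAT or its reverse complement was in the start region of 5 of the 10 genes, the 4 above and Itih1, and in 7.1% of 32851 mouse start regions of the same length. Counted from the start, its first base lay at -32 in Alb, -105 in Afp and -52 in Gc, and in Afm at -138 and, on the other strand, -73. TATAAA was in the first listed start region of Afp, Afm, Fetub and Itih3 and in 13.6% of all start regions. The sequences held 3 CG dinucleotides in Alb, 3 in Afp, 1 in Afm and 0 in Gc, against a median of 7 over all start regions.

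Summed transcript counts ran from 40453779 to 169981821 per library. The 10 genes took 8.06% of the counts of E12.5 ysE and 1.4% and 1.47% at E9.25. Their share was 0.693% and 1.12% for liver, 0.158% and 0.296% for mesoderm and 0.00721% to 0.174% among cystic EBs. Afp alone made up 7.91% at E12.5. Markers were checked against the labels. The summed RPKM (reads scaled to transcript length and library size) of 6 endoderm markers, among them Cubn and Amn, was 7845 for E12.5 ysE and 4916 and 5751 at E9.25, against 518 and 909 for mesoderm and 404.5 and 698 for liver. The hepatoblast markers Dlk1, Hnf4a and Prox1 summed to 28.6 and 40.6 for liver, less than the 113 of E12.5 ysE and the 90.2 and 103 of E9.25 ysE, where Hnf4a made up most of the sum. Prox1 by itself was 4.05 and 5.14 RPKM in liver and at most 0.135 in ysE. The 8 erythroid markers summed to 47950 and 38130 for mesoderm, 3339 and 5489 for liver, 935 and 1119 for E9.25 ysE and 248 for E12.5 ysE. Among them Hba-a1 and Hba-a2 had nearly equal counts in each library (74216 and 74218 in liver B). They are thus not separate markers in the sums and counts of this list. In bulk samples, fewer cells of a type and less RNA per cell cannot be told apart.

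Afp was the most abundant transcript of E12.5 ysE, at 35558 RPKM. At E9.25 the endoderm held 6071 and 6628 RPKM and the mesoderm 700 and 1255, and liver held 1396 and 2471. In cystic EBs it was 25.8 (A9) and 35.1 (JN) at day 10 and 688 (A9) and 212 (JN) at day 15. Afp was the third most abundant transcript in both E9.25 ysE libraries and the fourth in both liver libraries. The E12.5 ysE value lay above all other libraries, and no other group reached E9.25 ysE.

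Alb showed another order, with liver highest. It reached 358 and 767 RPKM in liver and 80.5 in E12.5 ysE. At E9.25 it was 0.221 and 0.194 in the endoderm (54 and 71 reads) and 0.077 and 0.04 in the mesoderm (18 and 11 reads), and cystic EBs ran from 0.009 to 0.812. The E9.25 values rest on few reads in libraries where Afp had 1512079 and 2478538.

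Gc and Ahsg were highest in E12.5 ysE. Gc was 198 RPKM there, 8.15 and 26.1 in liver, 3.3 and 2.73 at the earlier ysE stage, and at most 1.34 in mesoderm and cystic EBs. Ahsg was 152 RPKM in E12.5 ysE, 46.9 and 115 in liver, and 0.04 and 0.072 at the earlier stage, on 7 and 19 reads. For both genes all other libraries lay below liver. Afm was lower per length, at 8.34 RPKM in E12.5 ysE, 3.55 and 8.28 in liver, and 0.53 and 0.654 in ysE of E9.25. Fetub was 4.14 RPKM in E12.5 ysE, and its highest value in the other 10 libraries was 0.177. The E12.5 ysE protocol did not keep strand, and the 3 Fetub transcripts share most of their reads.

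The inter-alpha inhibitor genes were measured in liver and at both ysE stages. Ambp, the bikunin precursor gene, was 161 and 290 RPKM in liver, 216 in E12.5 ysE, and 38.98 and 41.98 at E9.25. Itih2, a heavy chain, was 265 and 375 RPKM in liver against 76.9 in E12.5 ysE, and Itih1 was 12.3 and 19.97 against 20.9. Itih3 was 26.1 and 48.3 RPKM in liver, 40.03 in E12.5 ysE, and 1.06 and 0.998 at E9.25. In both liver libraries Itih2 was the highest of the 3 heavy chains per length and Itih1 the lowest, which also held in E12.5 ysE. Liver library B was above liver library A in 10 of 10 genes, and its summed erythroid markers were higher too.

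**Figure D1:**
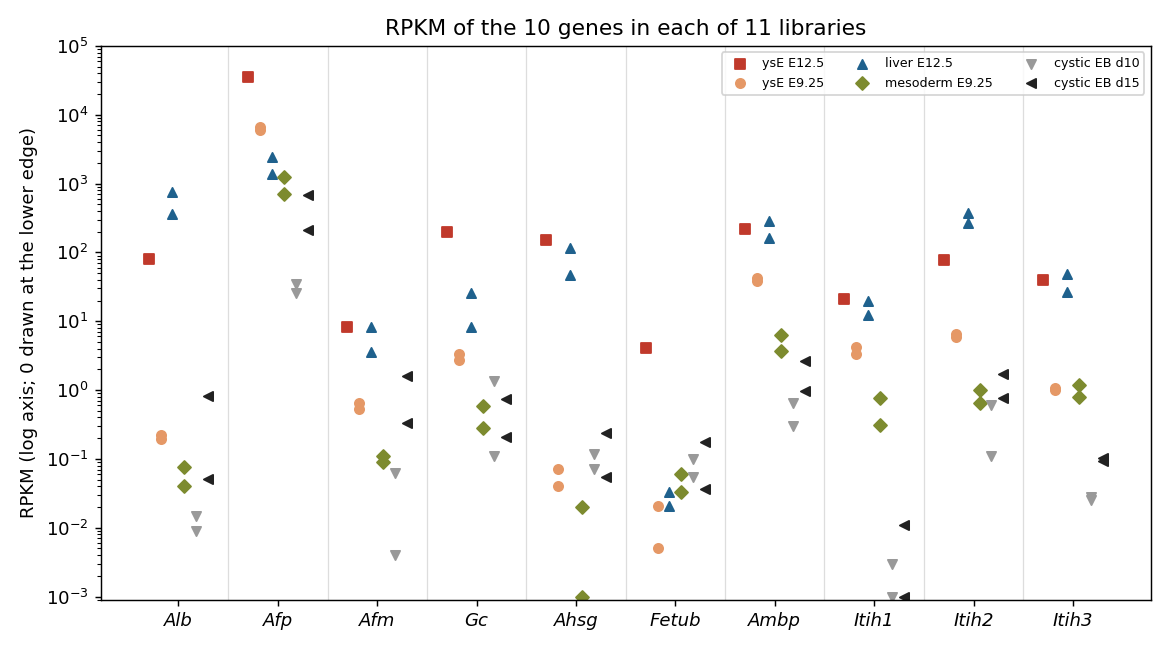
RPKM of the 10 genes in each of the 11 RNA-seq libraries on a log axis, 1 point per library, with zeros at the lower edge. Afp is the highest of the 10 genes in every library, Alb is higher in liver than in any other library, and Fetub lies under 0.2 RPKM outside E12.5 ysE.

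E12.5 ysE was set against E12.5 liver to compare 2 plasma protein-secreting tissues at the same age. The ysE was a separated layer, whereas the erythroid markers summed to 3339 and 5489 RPKM in liver, against 248 in ysE. Their part in the differences was not tested. Afp, Gc and Fetub were higher in ysE, and no gene was lower, of 10 tested. Across the 24858 transcripts tested, 22.6% were higher and 23.7% lower in E12.5 ysE, so the 3 of 10 is near the background share. The log2 fold change (ysE over liver, edgeR quasi-likelihood test, Benjamini-Hochberg adjusted) was 4.24 ± 1.54 (SE) for Afp (adjusted p = 0.047), 3.57 ± 1.14 for Gc (adjusted p = 0.0276) and 7.27 ± 1.05 for Fetub (adjusted p = 0.000589). Alb was -2.76 ± 1.96 (adjusted p = 0.273) and Itih2 was -2.02 ± 1.16 (adjusted p = 0.178), while Ambp, Itih1, Itih3 and Ahsg lay between -0.02 and 0.95 with adjusted p from 0.319 to 1. The Afp call rested on both livers: adjusted p was 0.184 without liver A and 0.126 without liver B, and the Gc call was lost without liver A (adjusted p = 0.137). With 1 E12.5 ysE library, its spread was taken from the other groups. Here and in the comparisons below, the spread of a transcript was estimated over all 11 libraries, cystic EBs of both days included.

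E9.25 ysE differed from E12.5 liver in 6 of 10 genes, each lower in ysE, against a background of 28.3% of transcripts lower and 26.7% higher. On the log2 scale Alb differed by -11.28 ± 2.14 (adjusted p = 0.00186) and Ahsg by -10.32 ± 0.96 (adjusted p = 4.89e-05). The inter-alpha inhibitor genes were lower together: Itih2 at -5.57 ± 1.04 (adjusted p = 0.00167), Itih3 at -5.05 ± 0.61 (adjusted p = 0.000166), Ambp at -2.35 ± 0.83 (adjusted p = 0.0359) and Itih1 at -1.98 ± 0.54 (adjusted p = 0.0119). Afp was 1.84 ± 1.30 (adjusted p = 0.253), Gc -2.38 ± 1.0 (adjusted p = 0.0675) and Afm -3.19 ± 1.62 (adjusted p = 0.12). For Afp both ysE libraries lay above both livers in RPKM, and a missing call does not show equal levels. Both ysE libraries here were dUTP and both livers ScriptSeq, and the effects of tissue and protocol cannot be told apart. The Ambp call was lost when any of the 4 libraries was left out (adjusted p from 0.0553 to 0.141). The Itih1 call was lost without either ysE library (adjusted p = 0.0791 without A and 0.0543 without B) or without liver B (0.0781).

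Between E9.25 and E12.5 the ysE rose in 6 of 10 genes and fell in none, where 3.90% of transcripts were higher at E12.5 and 4.57% lower. Ahsg rose most, by 11.28 ± 1.02 on the log2 scale (adjusted p = 0.0011). Alb rose by 8.51 ± 1.99 (adjusted p = 0.0318) and Fetub by 8.05 ± 1.07 (adjusted p = 0.00382). Fetub had 1 and 6 reads at E9.25, and its difference was 7.54 without library A and 9.37 without library B. Gc rose by 5.95 ± 1.23 (adjusted p = 0.0198), Itih3 by 5.20 ± 0.65 (adjusted p = 0.00295) and Itih1 by 2.39 ± 0.62 (adjusted p = 0.0442). Afp was 2.40 ± 1.49 (adjusted p = 0.35), Ambp 2.33 ± 0.93 (adjusted p = 0.154), Afm 3.73 ± 1.80 (adjusted p = 0.228) and Itih2 3.55 ± 1.02 (adjusted p = 0.0632). The median over the 10 genes was 4.46, against -0.21 over all transcripts tested. Leaving out either E9.25 library cost the calls of Alb, Gc and Itih1 and left 3 of 10, and stage and protocol changed together in this comparison.

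**Figure D2:**
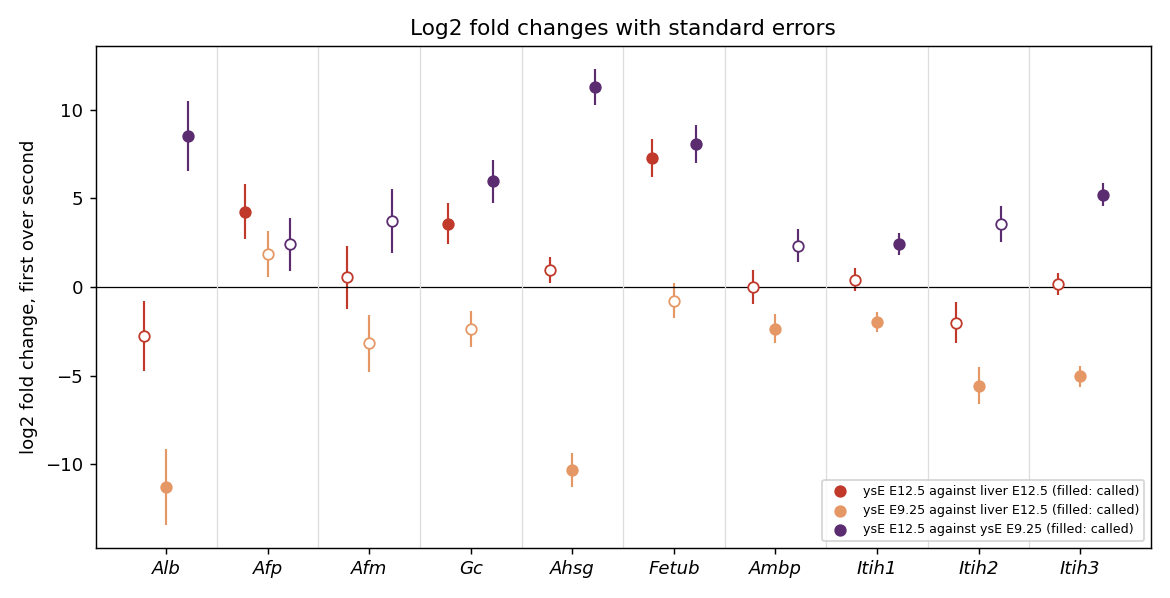
Log2 fold changes with standard errors for E12.5 ysE against liver, E9.25 ysE against liver and E12.5 against E9.25 ysE; filled points passed a 5% false discovery rate. Alb and Ahsg are near or above 8 between the ysE stages and below -10 at E9.25 against liver.

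The 2 layers of the E9.25 yolk sac were compared to see how much of each gene was in the endoderm. Gc, Ambp, Itih1 and Itih2 were higher in ysE than in mesoderm, 4 of 10 against 13.7% of transcripts higher and 16.9% lower. The log2 differences were 3.11 ± 1.04 for Gc (adjusted p = 0.0482), 3.32 ± 0.87 for Ambp (adjusted p = 0.017), 3.12 ± 0.57 for Itih1 (adjusted p = 0.00306) and 3.23 ± 0.93 for Itih2 (adjusted p = 0.0266). Afp was 3.01 ± 1.36 (adjusted p = 0.125), though its ysE libraries (6071 and 6628 RPKM) lay above those of mesoderm (700 and 1255). The spread behind that p also came from the cystic EBs, where Afp ran from 25.8 to 688 RPKM. Their part in it was not tested. The calls of Gc, Ambp and Itih2 were lost when any 1 of the 4 libraries was left out (adjusted p from 0.0559 to 0.24), which left Itih1.
The mesoderm level of most of these genes was a like share of the ysE level: 15.4% for Afp, 17.1% for Afm, 14.3% for Gc, 12.4% for Ambp, 14.2% for Itih1 and 13.2% for Itih2. Ahsg, at 17.9%, had 0 and 4 reads in mesoderm and 7 and 19 in ysE, and its log2 difference ran from 1.74 to 6.32 when 1 library was left out. The same share of the 6 endoderm markers ran from 9.83% (Ttr) to 21.3% (Cubn). Alb was at 28.2% and Itih3 at 95.7%, with 377 and 302 reads of Itih3 in mesoderm and 356 and 504 in ysE. The log2 difference of Itih3 was 0.39 ± 0.52 (adjusted p = 0.626). Whether endoderm RNA in the mesoderm samples set these shares was not tested.

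**Figure D3:**
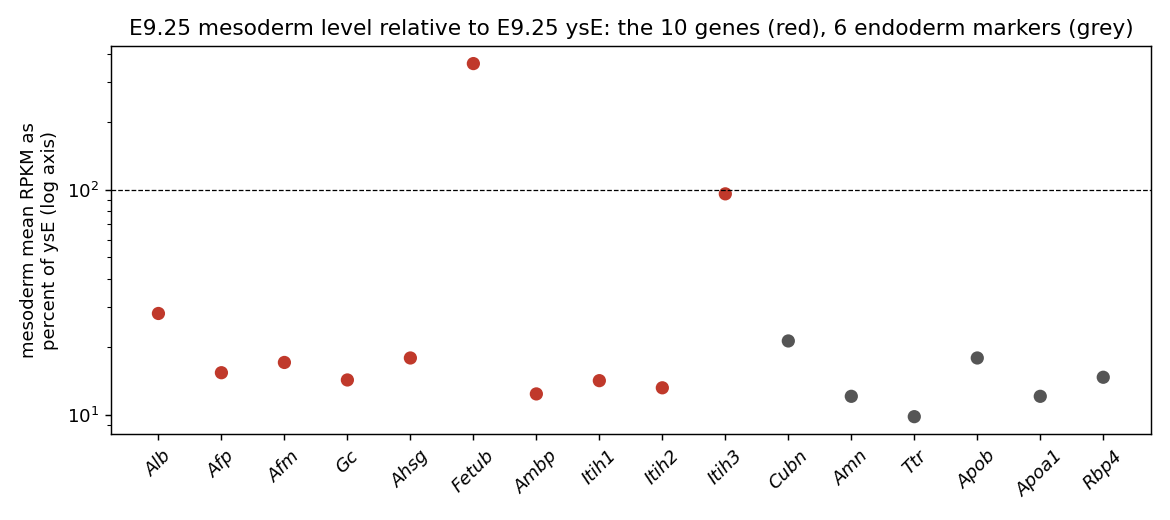
Mean mesoderm RPKM as percent of mean ysE RPKM at E9.25 on a log axis, for the 10 genes and 6 endoderm markers. Most genes lie with the markers between 9 and 22 percent, Itih3 lies at 95.7%, and Fetub, at 362%, and Ahsg, at 17.9%, rest on few reads.

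Cystic EBs were compared with each tissue, the 4 libraries, from 2 clones at 2 days each, being pooled as 1 group. Against E12.5 ysE, 10 of 10 genes were lower in cystic EBs, where 18.8% of transcripts were lower and 21.1% higher. The smallest difference was that of Afm, at -4.41 ± 1.45 (adjusted p = 0.0361), and Afp was -7.54 ± 1.29 (adjusted p = 0.00174). The 6 endoderm markers were lower as well, 6 of 6 against both ysE stages, with median log2 differences of -3.80 at E12.5 and -4.40 at E9.25. Their summed RPKM was 139 to 700 in cystic EBs, and their part in the result was not tested. Itih1 had 3 reads in the 4 cystic EB libraries together and 2772 in E12.5 ysE, a ratio per read of 7018 with a 95% counting interval from 2399 to 34053. The Afm call was lost without day 10 clone A9 (adjusted p = 0.0551), without day 15 clone JN (0.0799), with the DESeq2 test (0.0508) and in a fit of these groups alone (0.12).

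Against liver, 9 of 10 genes were lower in cystic EBs, where 20.9% of transcripts were lower and 24.6% higher. Fetub was the exception, at 1.38 ± 0.83 (adjusted p = 0.199), near zero in both. Alb was -11.68 ± 1.58 (adjusted p = 0.00043), Ahsg -9.82 ± 0.69 (adjusted p = 1.44e-05) and Itih3 -9.55 ± 0.56 (adjusted p = 4.99e-06). Of the hepatoblast markers 3 of 3 were lower than in liver as well, and of the erythroid markers 7 of 8. The 6 endoderm markers split into 2 higher, 2 lower and 2 not called. The part of these lists in the result was not tested. Against E9.25 ysE, 6 of 10 genes were lower and none higher, where 23.2% were lower and 27.1% higher. These were Afp at -5.14 ± 1.12 (adjusted p = 0.00458), Gc, Ambp, Itih1, Itih2 and Itih3. Alb was -0.40 ± 1.30 (adjusted p = 0.81) with 1 of 4 cystic EB libraries, day 15 clone A9, holding most of its reads (95 of 112). Without that library Alb was -3.34 and Afm -2.56, with adjusted p 0.00158 and 0.0478, and among dUTP libraries alone Alb was -3.20 (adjusted p = 0.00798). Fetub was 2.17 ± 0.84 (adjusted p = 0.055), on 1 to 16 reads in each of these libraries. The Afp and Afm calls against liver were lost without liver A (adjusted p = 0.0638 and 0.0622), without liver B (0.136 and 0.16) or without day 15 clone JN (0.0744 and 0.0834), and that of Afm also without day 10 clone A9 (0.0533). Among ScriptSeq libraries alone Afp was -2.69 (adjusted p = 0.154) and Afm -3.09 (adjusted p = 0.0993). The Gc call against E9.25 ysE was lost without either ysE library (adjusted p = 0.0841 without A and 0.0606 without B).

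Within the cystic EBs, Afp was the most abundant of the 10 genes in every library, and day 15 was above day 10 in both clones. Its log2(RPKM + 0.1) difference between day 15 and day 10 was 4.73 in clone A9 and 2.59 in clone JN. Afm differed by 3.39 and 2.04, Ambp by 1.88 and 1.42 and Itih2 by 1.39 and 2.03 in A9 and JN. With 1 library per clone and day, no difference between days or clones was tested. Cystic EB libraries also held more of the pluripotency markers Pou5f1, Nanog and Zfp42, whose RPKM summed to between 64.3 and 137 there, and their part in these levels was not tested.

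Genes of the same pathways were set beside the family in lists chosen with earlier results known. Of 5 genes of protein uptake, 5 were higher in ysE than liver at both stages, beside 22.6% of all transcripts at E12.5 and 26.7% at E9.25. Cubn and Amn are also among the 6 endoderm markers, of which 5 were higher at E12.5 and 6 at E9.25, with medians of 4.49 and 4.17. Of the 8 erythroid markers 5 were lower at each stage, and the part of either list in the uptake and regulator counts was not tested. The uptake genes included Cubn, a receptor for albumin and vitamin D-binding protein, at 8.57 ± 0.87 for E12.5 (adjusted p = 0.00011), and Amn, its partner, at 10.61 ± 1.08 (adjusted p = 0.000111). Fcgrt, which recycles albumin, was 543 RPKM in E12.5 ysE, 64.7 and 84.7 at E9.25, and 10.2 and 11.9 in liver. It rose between the ysE stages by 2.78 ± 0.66 (adjusted p = 0.033). Of 13 liver and endoderm regulators, 7 were higher and 2 lower in E12.5 ysE than in liver, beside 22.6% and 23.7% of all transcripts, with Cebpb at 4.85 ± 0.52 (adjusted p = 0.000133), Hnf4a at 3.12 ± 0.60 (adjusted p = 0.00258) and Prox1 at -6.05 ± 0.56 (adjusted p = 7.55e-05). Zhx2, a repressor of Afp after birth, was 0.127 RPKM in E12.5 ysE and 0.859 and 0.782 in liver, a log2 difference of -2.65 ± 0.64 (adjusted p = 0.00789). Zbtb20, another regulator of the list, was 0.148 RPKM in E12.5 ysE and 0.288 and 0.271 in liver, and was not called. Cebpa, a factor that activates Alb, was the 1 regulator called between the ysE stages, higher at E12.5 by 2.88 ± 0.56 (adjusted p = 0.0163), beside 3.90% of all transcripts. Against liver at E9.25, 6 regulators were higher and 5 lower, beside 26.7% and 28.3% of all transcripts, with a median log2 difference of -0.13. The median log2 difference from liver at E12.5 was 8.04 for uptake genes and 1.75 for regulators, against -0.26 over all transcripts.

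Of 6 hyaluronan genes, 4 were lower in E12.5 ysE than in liver and none was higher, and 5 were lower at E9.25, beside 23.7% and 28.3% of all transcripts lower. Of 7 mesoderm markers, 4 were lower in E12.5 ysE than in liver too, with a median log2 difference of -3.52. Their summed RPKM was 27.1 in E12.5 ysE and 145 and 118 in liver, and their part in the hyaluronan gene counts was not tested. Has2, a hyaluronan synthase, was 1.37 and 0.466 RPKM in liver, 8.86 to 44.6 in cystic EBs and 0 in E12.5 ysE. Vcan, a proteoglycan that binds hyaluronan, differed by -5.43 ± 1.09 between E12.5 ysE and liver (adjusted p = 0.00326). Among 8 related secreted protein genes, Kng2, a kininogen gene, was higher at 7.06 ± 1.34 (adjusted p = 0.00238) and Orm2, an acute-phase protein gene, lower at -5.45 ± 1.16 (adjusted p = 0.00424), with 6 not called, which is no larger a share than the 22.6% and 23.7% of all transcripts. Itih4, another heavy chain gene, rose between the ysE stages by 3.94 ± 0.74 (adjusted p = 0.0146). Of 6 genes flanking the albumin cluster, 2 were higher and 1 lower in E12.5 ysE than in liver, near the 22.6% and 23.7% of all transcripts. The 1 lower gene was Cxcl5, a chemokine gene, with 0 reads in E12.5 ysE and 41 in each liver library (adjusted p = 0.00414). The albumin family gene Albfm1 was 0.631 RPKM in E12.5 ysE and 0.487 and 0.509 in liver, and Rassf6 was higher in ysE by 2.62 ± 0.66 (adjusted p = 0.00972).

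The 5 transcripts whose log2(RPKM + 1) was most like Afp over the 11 libraries, of 16336 with a mean of at least 1 RPKM, were Trf (r = 0.9751), Fgg, Fga, Apoa2 and Acaa2. The 5 most like Ahsg were Apof (r = 0.9982), F11, BC021614, Apoh and Saa4. The 5 most like Alb were Mpeg1 (r = 0.9891), Bcas1, Gys2, AI182371 and Ern1, of which Mpeg1 reached 4.7 RPKM at most. Libraries of a tissue share that tissue, so these are descriptions. Trf, transferrin, was 8328 RPKM in E12.5 ysE. Between the members, r was 0.43 for Alb with Afp and 0.97 for Alb with Itih2.

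Exon-part counts were on hand for 1 E9.25 ysE library and the 4 cystic EB libraries. In that ysE library Afp had 1512739 counts over 15 of 15 parts, while Alb had 33 over 11 of 15 parts and Ahsg 7 over 5 of 7. Fetub had 0, and Itih3 had 552 over 20 of 34 parts, more than its 356 transcript reads.

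Gene-body CpG methylation set Afp apart in ysE. Reads were counted at each CpG, so that a read over several CpGs counted at each of them. The share of methylated reads over Afp was 25.0% (76 reads, Wilson 95% interval 16.6 to 35.8) and 33.3% (114 reads, 25.3 to 42.4) in ysE CxF and FxC. Liver had 72.8% (103 reads, 63.5 to 80.5) and 78.8% (132 reads, 71.1 to 84.9), and cystic EBs had 94.3% and 84.4%. The intervals take these counts as independent, so they can be too narrow where a read covers several CpGs. They leave out the spread between libraries. No p is given, since the smallest that exact permutation of 4 libraries allows is 0.33. Both ysE libraries were lower than both liver libraries in 57.3% of 14179 gene bodies. Over whole libraries, 67.8% and 60.1% of reads were methylated in ysE, 77.6% and 79.8% for liver and 87% and 82.6% for cystic EBs. The Afp difference between tissue means was -46.6 percentage points, against a median of -9.8, and 0.889% of the gene bodies had a difference as low.

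At the neighbouring genes the ranges of ysE and liver overlapped. Within each cross direction, ysE was below liver at Afm and Gc, and at Alb it was below in FxC and above in CxF. The Alb body was 91.3% and 71.6% in ysE and 85.1% and 90.7% in liver, on 54 to 161 reads per library. The Afm body was 78.9% and 53.2% in ysE and 79.3% and 76.1% in liver, and Gc was 78.8% and 72.5% against 79.9% and 78.3%. Of the 10 bodies, 5 had both ysE libraries below both livers (Afp, Ambp, Itih1, Itih2, Itih3) and the others overlapped, near the 57.3% of genes. With each CpG weighted alike, Itih3 overlapped too, with ysE CxF at 83.5% and liver at 81.4% and 83.0%. Itih2 was 74.8% and 57.9% in ysE against 86.9% and 83.3%. For Ambp, the ysE CxF library stood apart on chromosome 4, where 53.3% of reads were methylated and 414052 cytosines were called against 249484 in FxC, and its part in the Ambp value was not tested. Over the span from Gc to Afm, ysE was 73.4% and 63.1%, liver 79.0% and 81.0% and cystic EBs 87.5% and 83.7%.

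**Figure D4:**
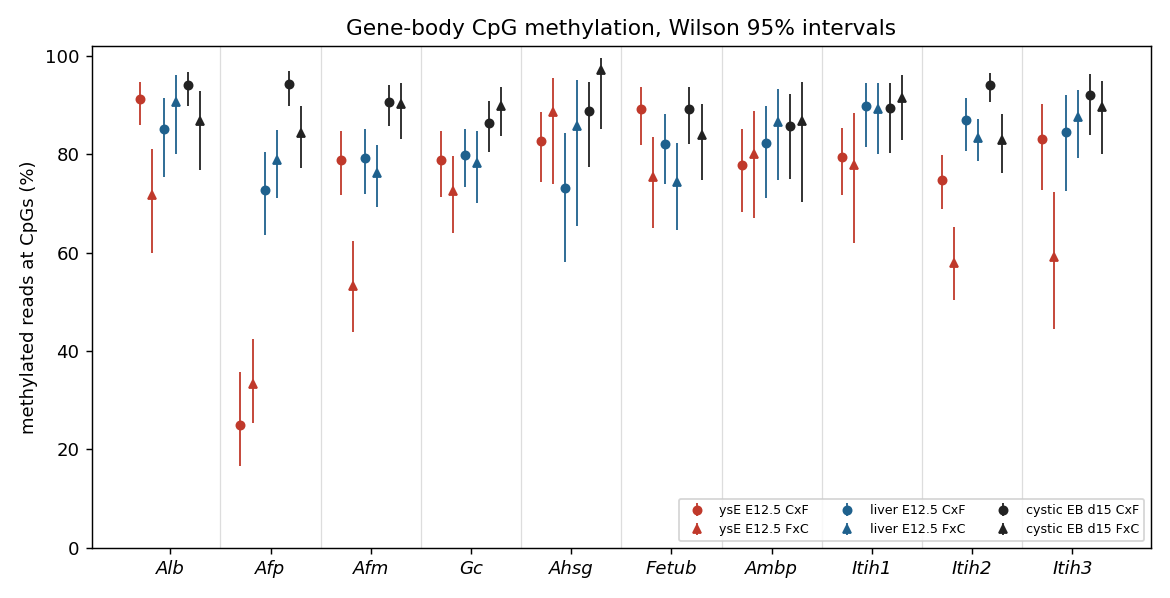
Methylated reads at CpGs in the bodies of the 10 genes, in percent, for 6 WGBS libraries with Wilson 95% intervals, which take the counts at CpGs as independent. The Afp points of ysE, at 25.0% and 33.3%, lie below all others.

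Around the starts, coverage was thin. Reads were again counted at each CpG, and those of ysE CxF at the Afp start lay on 4 cytosines. Within 1 kb of the start, the Afp share was 0.0% (10 reads, interval up to 27.8) and 39.3% (28 reads) in ysE, 56.7% (30 reads) and 75.0% (24 reads) in liver, and 89.3% and 58.3% in cystic EBs. Leaving out 1 library moved the ysE and liver difference at this start between -65.8 and -26.5 percentage points. Afp was the 1 gene with at least 10 reads in all 6 libraries there. Both ysE libraries were lower than both livers in 30.2% of 1237 starts. The start of Ahsg was 53.8% (26 reads) and 30.0% (10 reads) in ysE, 96.3% (27 reads) in liver FxC and 92.3% and 100% in cystic EBs, with 8 reads in liver CxF. The start of Alb was 91.9% (37 reads) and 61.5% (13 reads) in ysE and 82.4% (17 reads) in liver FxC. In liver CxF it had 7 reads, 4 of them methylated, too few for a share. In 10 kb bins along the cluster, the ysE shares were 43.8% and 50.0% just before Afp, 27.3% and 38.6% in its first bin and 21.3% and 21.4% in the next, and 83.0% and 61.0% in the bin that ends just inside Afm. Liver had 68.3% and 83.0%, 71.7% and 77.4%, 82.1% and 76.7%, and 62.2% and 78.6% in these bins. Both ysE libraries were also below both livers in bins centred at -25, -15, 65 and 95 kb from the Alb start. At -25 kb ysE had 53.6% and 41.2% and liver 70.8% and 81.1%. In the bin that ends just inside Afm and all bins not named here, the ranges overlapped. Over the whole interval from Afp to Afm, ysE had 64.7% and 63.2% (34 and 38 reads) and liver 69.0% and 77.8% (42 and 45 reads).

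**Figure D5:**
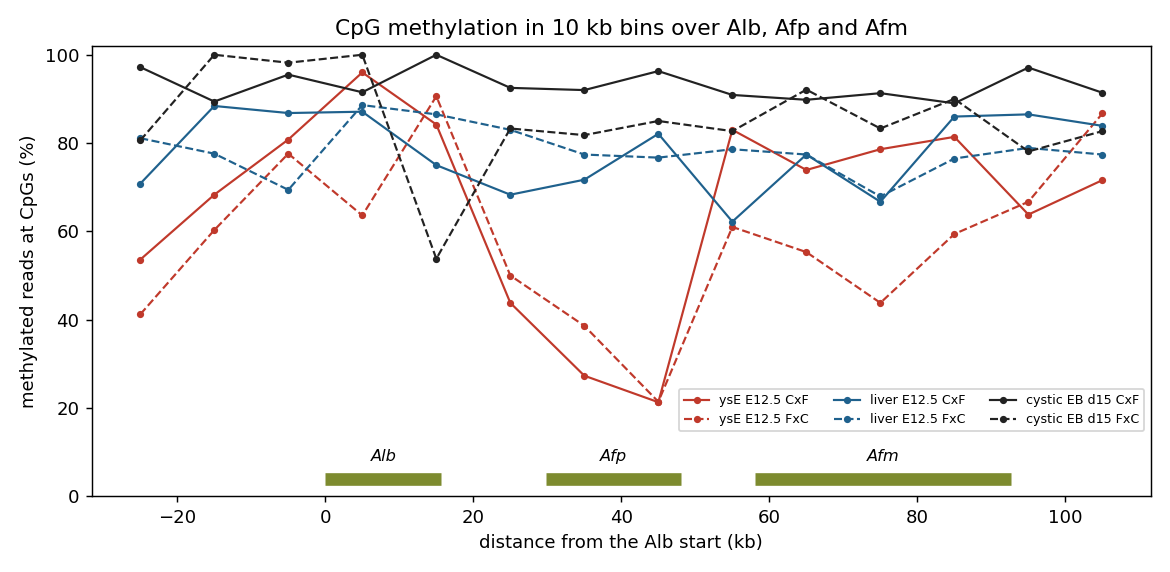
Methylated reads at CpGs in 10 kb bins by distance from the Alb start, 1 line per WGBS library, with bars for Alb, Afp and Afm. The ysE lines fall to 21.3% and 21.4% over Afp, while liver and cystic EB lines stay above 70% there.

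H3K4me3, a mark of active starts, was within 1 kb of any listed start at 10 of 10 genes in E12.5 VYS. The share over all genes, 59.2% of 17492, counted the first listed start only. By that rule Fetub would not count, as its first start was 1880 bases from the nearest peak. The peak score of the caller, 10 times the -log10 of its p, was 3100.0 at Afp and at Gc, a value that 24.7% of all 22343 peaks reached or passed. The highest score of any peak was 3233.1. Equal scores do not rank Afp and Gc, and whether the caller limits its score near this value was not tested. It was 1264.7 at Ahsg, 1031.2 at Alb and 604.2 at Itih2, against a median of 862.9 over all peaks. The lowest were Fetub at 63.7, at the second of its 2 starts, Afm at 137.1 and Ambp at 143.3. The whole VYS includes mesoderm, and the ChIP had no replicate.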

How the data were processed

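RNA-seq, WGBS and H3K4me3 ChIP-seq tables were used as deposited. Per the labels and methods, the authors aligned reads to mm10 with GSNAP, and deposited read counts and RPKM per RefSeq transcript, percent methylation with read counts per cytosine, and MACS 1.4.2 peaks with a score. Counts were tested with the edgeR 4.0.16 quasi-likelihood test (R 4.3.3): 11 libraries, 5 groups, filterByExpr, TMM scaling, Benjamini-Hochberg adjustment over 24858 transcripts, call at 5%. The SE is the log2 fold change over the root of F. DESeq2 1.42.0 was an alternative. RPKM differences used a pseudocount of 0.1. Methylated reads were summed over the CpGs of a feature, a read counting at each CpG it covered, where the sum of reads was at least 10. Named genes were the 10 members, the 5 transcripts most like Alb, Afp and Ahsg, and the list genes with the largest called changes, with a few others named for their known role after their values were seen. The members and lists were chosen with earlier results of these data known. The 4 cystic EB libraries came from 2 ES cell clones, each sampled at 2 days, so that they are not 4 independent clones, and tissue samples came from pooled litters, and p-values measure the spread between these samples. The table of repeats, and 1 exon-part file holding only zeros, were not used.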

Additional observations from a re-analysis of the deposited data

Results flagged for a closer look

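Alb in the cystic EBs had 1 library far from the others: the gap of day 15 clone A9 to the next library was 0.948 of the range over 4 libraries (0.009 to 0.812 RPKM). The limit used for such gaps is passed by chance in about 1 of 20 groups, and 9 genes were examined.

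For 4 genes the 2 ES cell clones moved in opposite directions from day 10 to day 15, on log2(RPKM + 0.1), with 1 library per clone and day, so that the differences were not tested. Gc was -0.76 in clone A9 and 0.56 in clone JN. Ahsg was 0.63 and -0.14, and Fetub was 0.47 and -0.19, in A9 and JN. Itih1 was 0.15 and -0.04, on 0 to 2 reads per library.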

How the results depend on the processing

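Few reads limit Alb and Ahsg in E9.25 tissues and cystic EBs, Fetub outside E12.5 ysE and Itih1 in cystic EBs, and WGBS held 1.8 to 2.21 reads per cytosine. Of 654 values for single genes under the alternatives, 575 kept direction and call, 49 lost and 26 gained the call, and 4 turned sign, none of them called: Alb in cystic EB against E9.25 ysE (0.04 without day 10 clone JN, range -3.34 to 0.04 leaving out a library), Ahsg there (-0.27 with dUTP libraries only), and Itih3 (-0.22 without liver A to 0.63 without liver B) and Ambp (-0.37 without liver A to 0.44 without liver B) in E12.5 ysE against liver. Leaving out a WGBS library, the ysE minus liver difference of the gene body turned sign for Alb (-16.3 to 3.4 points), Afm (-24.5 to 1.2), Ahsg (-0.1 to 12.4) and Fetub (-3.0 to 10.8). It ran from -50.8 to -42.5 for Afp. Averaging per CpG moved it from -15.0 to -7.0 for Itih3, from -6.5 to -0.9 for Alb and from -5.5 to -2.6 for Ambp.

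The count of genes higher in cystic EB than E9.25 ysE was 1, not 0, with DESeq2 size factors, the DESeq2 test and gene sums, and 0 to 1 leaving out a library. With only the groups compared, 2 genes, not 0, were lower in E12.5 ysE than liver, 1, not 0, was higher in E9.25 ysE than liver, 10, not 6, were higher in E12.5 than E9.25 ysE, and 7, not 4, were higher in ysE than mesoderm. Fits of E12.5 ysE with 1 other tissue group take all spread from 2 libraries. With a replicate block in the fit of only these 4 libraries, the last was also 7. Whether the letters A and B pair the 2 layers was not stated. The deviations of same-lettered ysE and mesoderm libraries correlated at -0.086, which cannot show whether they share litters. Leaving out a library gave 1 to 2 genes higher in E12.5 ysE than liver, 3 to 3 in E12.5 than E9.25 ysE, and 1 to 1 in ysE than mesoderm. The median RPKM difference of E12.5 over E9.25 ysE was 4.38 with a pseudocount of 0.1 and 3.0 with 1. The cause of these changes was not tested.

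Over all transcripts, calls between the ysE stages numbered 2106, against 3910 with DESeq2, 10559 with only these groups and 349 and 390 without an E9.25 library. For ysE against mesoderm they numbered 7613, against 13160 with only these groups, 12279 with only these groups and the block, and 4021 to 4869 leaving out a library. For cystic EB they numbered 9932 against E12.5 ysE (6344 with only these groups), 12500 against E9.25 ysE (7793 and 7603 without an ysE library) and 11297 against liver (6668 without liver B).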
